A study of Mus musculus with 3 samples.

Results

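The cells described here were tdTomato+ cells of adult mouse retina that held high transcript levels of both Ccl2, a chemokine that attracts monocytes, and Igfbp2, which encodes a secreted protein that binds insulin-like growth factors. A cell was counted when it held at least 10 Ccl2 UMIs and at least 5 Igfbp2 UMIs per 10000 UMIs of its total, and fewer than 2 UMIs per 10000 of the microglial genes C1qa, C1qb and C1qc summed. UMIs are unique molecular identifiers, so each counts 1 captured transcript. This rule selected 426 of 24672 cells (1.73%), called the gated cells below. They were chosen by measured Ccl2, Igfbp2 and C1q values, so the levels of those genes are given as descriptions only. Cxcl10 and Gbp2 were named as markers of these cells from earlier results on the same data, and their values are likewise given without a test. All mice carried Yap5SA+/tg, ROSA26R-tdTomato+/tg and Glast-CreERT+/tg, received tamoxifen and then NMDA, and had their tdTomato+ retinal cells sorted after 2 days. The data are 3 runs of this 1 group. No uninjured or Cre-negative sample was analysed here, and the labels do not say whether the runs came from separate mice or how many mice each pooled. P-values therefore measure the spread between these runs, which may be technical. The Cre acts wherever the Glast promoter is active, which includes astrocytes as well as Müller glia.

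Müller glia are the radial support cells of the retina, which take up glutamate, recycle visual pigment and react to injury. NMDA kills retinal neurons by overstimulating glutamate receptors, and Yap5SA is a form of the transcriptional coactivator YAP that Hippo pathway kinases cannot restrain. Reactive glia can release chemokines that draw in leukocytes. The Ccl2, Cxcl1 and Cxcl10 genes are textbook targets of NF-kB, a factor held in the cytoplasm by the inhibitor that Nfkbia encodes, and Cxcl10, Gbp2 and the Ifit genes are induced by interferons through STAT and IRF factors.

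The promoters of 4 genes that stood higher in the gated cells are shown because NF-kB or interferon-activated factors are known to induce these genes. Each is the 250 bases before the RefSeq start on GRCm38.p6, 5′ to 3′ on the gene's strand, at chr5:92348890-92349139 (minus) for Cxcl10, chr3:142620413-142620662 (plus) for Gbp2, chr19:34640639-34640888 (plus) for Ifit1 and chr12:55492648-55492897 (minus) for Nfkbia. Capitals mark matches, on either strand, to the kB-like motifs GGANNTTCC and GGGNNTTCC and to the interferon response core GAAANNGAA.
Cxcl10: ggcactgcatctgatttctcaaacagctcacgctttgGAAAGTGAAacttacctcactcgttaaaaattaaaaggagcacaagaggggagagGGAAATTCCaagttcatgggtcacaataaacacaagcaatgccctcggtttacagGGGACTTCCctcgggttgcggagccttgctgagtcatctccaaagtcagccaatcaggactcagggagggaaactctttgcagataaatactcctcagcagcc
Gbp2: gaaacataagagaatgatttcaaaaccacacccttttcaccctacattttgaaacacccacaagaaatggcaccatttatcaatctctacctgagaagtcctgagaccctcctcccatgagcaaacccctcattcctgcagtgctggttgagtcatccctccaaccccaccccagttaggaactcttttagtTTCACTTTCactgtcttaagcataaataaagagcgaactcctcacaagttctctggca
Ifit1: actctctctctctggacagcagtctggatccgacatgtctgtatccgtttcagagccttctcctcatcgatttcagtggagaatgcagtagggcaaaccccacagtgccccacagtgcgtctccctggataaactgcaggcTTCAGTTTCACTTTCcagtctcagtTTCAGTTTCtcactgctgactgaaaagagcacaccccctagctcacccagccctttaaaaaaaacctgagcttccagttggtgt
Nfkbia: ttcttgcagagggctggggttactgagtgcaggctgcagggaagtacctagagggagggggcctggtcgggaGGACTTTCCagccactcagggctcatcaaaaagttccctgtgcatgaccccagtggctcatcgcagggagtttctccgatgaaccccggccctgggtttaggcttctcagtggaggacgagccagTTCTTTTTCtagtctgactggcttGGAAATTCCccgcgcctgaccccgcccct
Cxcl10 held 1 match to each kB-like motif, starting 158 and 103 bases before the start, and an interferon response core at 213 bases. Nfkbia held GGANNTTCC at 178 and 29 bases and an interferon response core at 53 bases. Gbp2 held an interferon response core at 58 bases. Ifit1 held 3, of which those at 109 and 103 bases overlap, with the other at 84 bases. Among 32851 promoter windows of this length, 8.38% held either kB-like motif and 7.13% the interferon response core. The STAT core TTCNNNGAA, present in 7.02% of windows, was not found in these 4. A match is a description of the letters and does not show a binding site. Of 10 genes looked up, 7 had a promoter in the table, and Ccl2, Ccl7 and Iigp1 did not.

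The runs held 7668, 8799 and 8205 cells after filtering, with median UMIs per cell of 9665, 11207 and 9418, and the lowest total was 3538 UMIs. Pairs of runs shared 83 to 108 cell barcodes. Run 2 stood apart in Ccl2 itself: summed over all its cells, Ccl2 made up 665 CPM (UMIs per 1000000 UMIs of the summed total), against 48.7 in run 1 and 111 in run 3. Levels are therefore given run by run for many genes. For others only the change over runs is given, which does not show how far it rested on run 2.

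The gated cells came mostly from run 2. Run 1 held 29 of them, or 0.378% of its cells (95% exact Clopper-Pearson interval 0.253 to 0.543), run 2 held 309, or 3.51% (3.14 to 3.92), and run 3 held 88, or 1.07% (0.861 to 1.32). These intervals cover counting error only and did not overlap between runs. Run 2 thus gave 72.5% of the gated cells. The share of cells with at least 5 Igfbp2 UMIs per 10000 was 27.5%, 26.7% and 25.1% in runs 1, 2 and 3. Of those Igfbp2-high cells, 1.38%, 13.1% and 4.28% were gated cells, so the runs differed in Ccl2 among Igfbp2-high cells and little in the number of Igfbp2-high cells. Read the other way, 85.3% of the 34 Ccl2-high cells of run 1, 35.7% of the 865 of run 2 and 60.3% of the 146 of run 3 were gated cells. The plot of gated cells by run shows both the counts and the share of Igfbp2-high cells. The C1q limit removed 0, 1 and 0 cells.

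**Figure D1:**
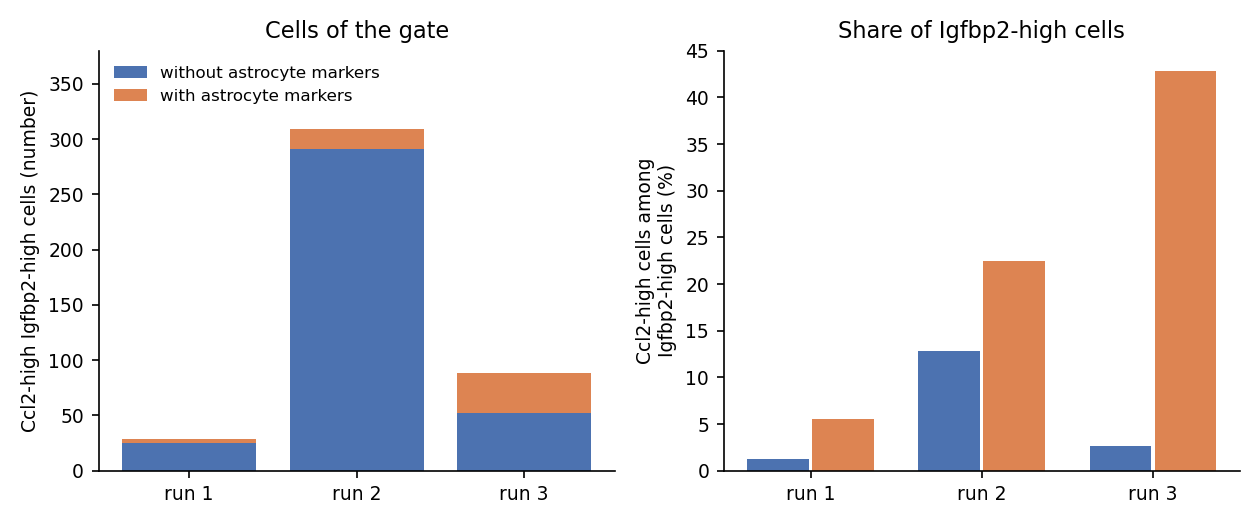
Left, number of Ccl2-high Igfbp2-high cells in each run, stacked as cells without and with astrocyte markers. Right, percent of Igfbp2-high cells that were also Ccl2-high in each run, for cells without and with astrocyte markers. Run 2 holds 309 of the 426 cells, and in run 3 36 of 88 carry astrocyte markers.

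The label Müller glia was checked against marker genes, and it was in doubt for some cells. Of 32 listed Müller glia genes, 25 reached 50 CPM in the gated cells of every run. Among them were Glul, glutamine synthetase, at 316, 501 and 340 CPM in runs 1, 2 and 3, and Slc1a3, the glutamate transporter Glast, at 537, 452 and 628. The summed level of the 20 listed microglia and macrophage genes was 63.9, 101 and 39.4 CPM, with 11, 2 and 16 of them at 0, against 60.2, 54.4 and 48.0 in Igfbp2-high cells with little Ccl2. The 6 neutrophil and T cell genes in the table summed to 0, 0.534 and 0. The 10 listed astrocyte genes summed to 1582, 454 and 2561 CPM, against 526, 383 and 287 in Igfbp2-high cells with little Ccl2. In cells low in both Ccl2 and Igfbp2 they summed to 2195, 1693 and 1556, above the gated cells in runs 1 and 2. This sum alone therefore does not mark astrocytes. The 11 pericyte and fibroblast genes in the table summed to 567, 233 and 778, against 173, 188 and 176 in Igfbp2-high cells with little Ccl2.

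A set of 58 gated cells (13.6%) carried astrocyte markers, defined after the data were seen as at least 2 UMIs per 10000 of Pax2, S100b and Pdgfra summed. They numbered 4, 18 and 36 in runs 1, 2 and 3, or 13.8%, 5.83% and 40.9% of the gated cells. Of the other 368 cells, 362 had none of these transcripts. In the marker-bearing cells Gfap, the intermediate filament of astrocytes, stood at 6498, 3538 and 4937 CPM, against 7.63, 60.3 and 9.92 in the other gated cells. Rgs5 stood at 2847, 2146 and 1894 CPM against 0, 1.95 and 0. The water channel gene Aqp4, which Müller glia express, stood at 0, 3.32 and 1.85 CPM in the marker-bearing cells and at 72.5, 186 and 113 in the others. In each of the 3 runs the summed level was higher in the marker-bearing cells for Gfap and Rgs5 and lower for Aqp4. Rgs5 is also on the pericyte list. Other Müller glia genes were mixed in the marker-bearing cells of runs 1 and 2. Rlbp1 stood at 137 and 159 CPM and Crym at 226 and 166, while Kcnj10 stood at 0 in both. What these cells are was therefore not settled by these genes. Single cells of run 1 overlapped at no UMI for Aqp4 and Rgs5: an Aqp4 UMI was found in 14 of 25 cells without astrocyte markers and 0 of 4 with them, and an Rgs5 UMI in 0 of 25 and 3 of 4. Cxcl10 was present in both, at 1551, 5777 and 865 CPM in the marker-bearing cells and 113, 1997 and 205 in the others. Of Igfbp2-high cells with astrocyte markers, 58 of 236 (24.6%) were gated cells, and of those without, 368 of 6279 (5.86%). Most list counts of the first comparison and the changes of some genes are given with and without the marker-bearing cells. In the first and second comparison, a change given once and without naming a set covers all gated cells. The part of the marker-bearing cells in such a change is not shown. The 368 others are called the gated cells without astrocyte markers.

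Cells at the limits of the rule are described without a test. Median Ccl2 of the gated cells was 14.1, 33.9 and 18.4 UMIs per 10000 in runs 1, 2 and 3, with highest values of 39.4, 185 and 86.7. Median Igfbp2 was 39.9, 18.2 and 21.6. The 45 gated cells with 10 to 12 Ccl2 UMIs per 10000 held 311 Cxcl10 CPM, and the 63 Igfbp2-high cells with 8 to 10 held 339. The 13 gated cells with 5 to 6 Igfbp2 UMIs per 10000 held 536 Gbp2 CPM, and the 15 Ccl2-high cells with 4 to 5 held 829. Median totals were 19182, 23808 and 16450.5 UMIs. On mm10 the gene of Ccl2 lies at chr11:82035571-82037453 and that of Ccl7 at chr11:82045712-82047525, both on the plus strand. Igfbp2 lies at chr1:72824503-72852474, Cxcl10 at chr5:92346638-92348889, Gbp2 at chr3:142620602-142638008, where GENCODE M21 starts the gene upstream of the RefSeq start used above, and Nfkbia at chr12:55489410-55492647.

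The first comparison was with Igfbp2-high cells that held under 1 Ccl2 UMI per 10000 (the Igfbp2-only cells, 1731, 1374 and 1419 in runs 1, 2 and 3), and asked what else differed when Ccl2 was high. Chemokine, interferon-induced and NF-kB response genes were higher in the gated cells, and genes of late G2 and mitosis and several Müller glia genes were lower. Counts were summed per run and class and tested with edgeR's quasi-likelihood test with the run as a block. Changes are log2 of gated over compared cells, with the SE, and levels are CPM of the summed UMIs. Of 12966 genes, 387 (2.98%) were higher and 250 (1.93%) lower at an adjusted p under 0.05, with a median change over all genes of -0.01. With no scaling beyond library size, the split was 345 higher and 382 lower. Without the astrocyte-marker cells of both classes, 338 (2.65%) were higher and 172 (1.35%) lower of 12764 genes, with a median change of -0.02. Both fits called 321 genes, 50.4% of the calls from all cells and 62.9% of those without astrocyte-marker cells, each in the same direction in both. Without run 1 the counts were 184 and 70, without run 2 they were 580 and 376, and without run 3 551 and 290. Among the 335 gated cells kept in the authors' log table, 6 genes were higher and 2 lower in a fit that rested on runs 2 and 3, where 0 of 39 interferon-induced and 0 of 54 G2 and M phase genes were called. The median changes of these lists there were 2.46 and -0.36.

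Of 18 tested genes of the chemokine and cytokine list, 9 rose and none fell, with a median change of 1.5. Without the astrocyte-marker cells 7 of 17 rose, with a median of 0.78, and without those cells and run 2 7 rose and 1 fell, with a median of 0.51. Both counts include Cxcl10. Ccl7, a monocyte chemokine encoded beside Ccl2, stood at 94.3, 841 and 238 CPM in the gated cells of runs 1, 2 and 3 and at 2.68, 11.4 and 3.60 in the Igfbp2-only cells. Every run's gated cells lay above every run's Igfbp2-only cells, and run 2 was highest in both. The Ccl7 change was 5.96 ± 0.22 (SE, edgeR adjusted p = 1.75e-06), and 5.49 ± 0.31 (adjusted p = 0.000105) without astrocyte-marker cells. Among gated cells without astrocyte markers 44.0%, 87.3% and 40.4% held a Ccl7 UMI, against 3.46%, 19.9% and 4.08% of the Igfbp2-only cells without them. Median totals behind these shares were 18489, 24630 and 19611.5 UMIs in the gated cells without astrocyte markers and 18694, 21403 and 19402 in the Igfbp2-only cells without them.

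Cxcl10, a chemokine for activated T cells, stood at 347, 2148 and 435 CPM in the gated cells and 23.2, 51.8 and 45 in the Igfbp2-only cells. Without astrocyte-marker cells its levels in the gated cells were 113, 1997 and 205, so run 2 was about an order of magnitude above the other runs, while all 3 lay above the Igfbp2-only cells. The Cxcl10 change was 4.26 on the log2 scale with all cells and 3.57 without astrocyte-marker cells, given as a description. The neutrophil chemokine gene Cxcl2 stood at 65.5, 99.2 and 87.2 CPM against 1.82, 6.58 and 3.60, a change of 4.51 ± 0.21 (adjusted p = 8.22e-06). Without astrocyte-marker cells the gated cells held 34.3, 44.2 and 20.8 Cxcl2 CPM, and the change was 3.11 ± 0.29 (adjusted p = 0.00127). In run 1 those 18 Cxcl2 UMIs came from 3 of 25 cells. The 3 cells with the highest Ccl2 held 325 Cxcl2 CPM there and the other 22 held 4.21. In run 3 the 2 cells with the highest Ccl2 held 271, the next 16 held 18.0 and the other 34 held 4.76. The Cxcl2 levels of runs 1 and 3 without astrocyte-marker cells thus rested on few cells. For its relative Cxcl1 the levels were 227, 79.5 and 327 against 7.90, 17.4 and 15.4, and without astrocyte-marker cells they were 197, 60.3 and 28.8. In run 1 39 Cxcl1 UMIs came from the 4 astrocyte-marker cells and 103 from the 25 others. Of those 25, the 3 with the highest Ccl2 held 1259 Cxcl1 CPM and the other 22 held 86.3. Cxcl1 rose by 3.83 ± 0.42 (adjusted p = 0.00145) with and 2.67 ± 0.54 (adjusted p = 0.0276) without astrocyte-marker cells. Ccl5, a chemokine for T cells and monocytes, rose by 3.86 ± 0.18 (adjusted p = 7.11e-06), and by 3.14 ± 0.59 (adjusted p = 0.0202) without astrocyte-marker cells. Its level without them was 11.4, 49.8 and 1.98 CPM, so that run 3 lay below the level of 2.70 in the Igfbp2-only cells of that run.

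Csf1, the growth factor of microglia and macrophages, was not highest in run 2. It stood at 350, 274 and 256 CPM in the gated cells and at 158, 181 and 168 in the Igfbp2-only cells. The groups did not overlap. The rise was 0.83 ± 0.11 (adjusted p = 0.00368), and 1.05 ± 0.11 (adjusted p = 0.00184) without astrocyte-marker cells. Cxcl12, a chemokine that holds CXCR4+ cells in place, stood at 177, 281 and 313 CPM against 186, 198 and 188 and did not pass the test (0.48 ± 0.15, adjusted p = 0.105). Il33, an alarmin cytokine that Müller glia express, stood at 315, 586 and 238 CPM against 455, 431 and 446, and Tgfb2, a growth factor, at 345, 252 and 337 against 377, 356 and 328. Neither passed (adjusted p = 0.637 and 0.553). The plot of levels by run shows these chemokines with genes of the other groups.

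**Figure D2:**
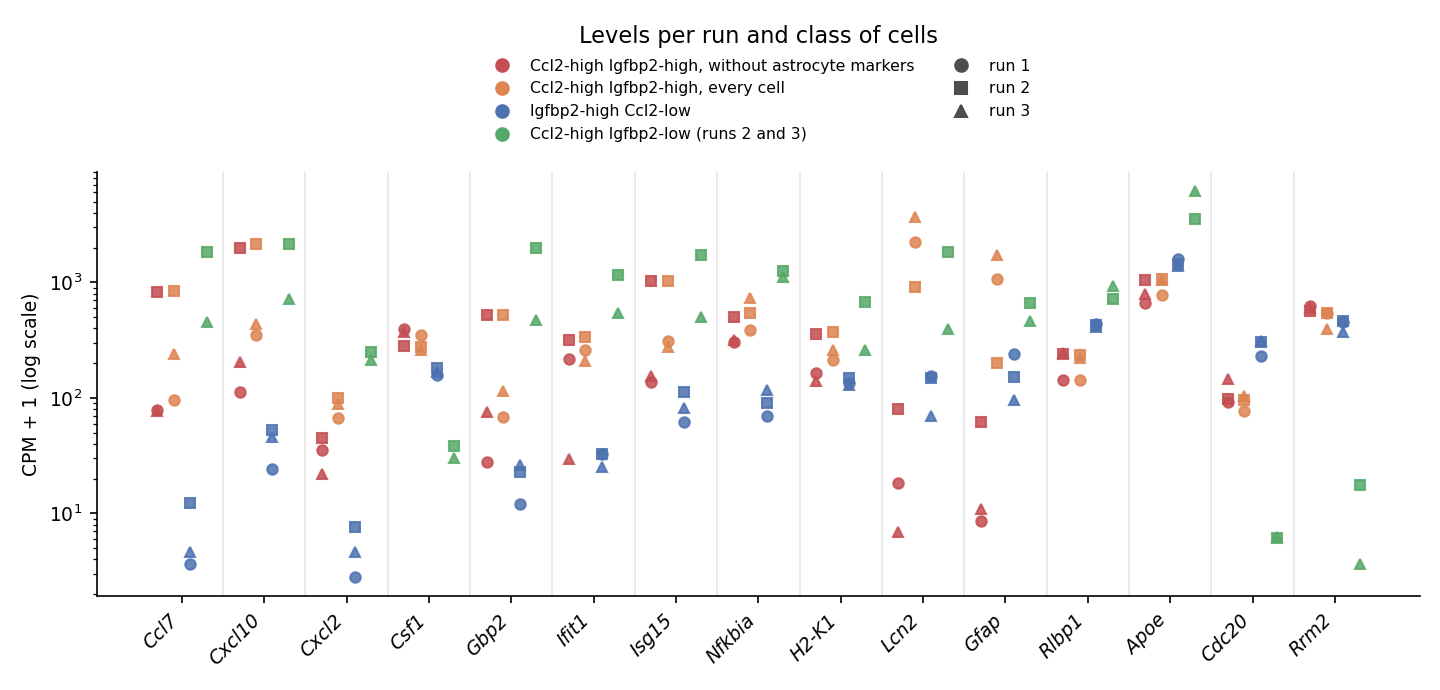
Level of 15 genes in each run, as CPM of the summed UMIs plus 1 on a log axis. Red symbols are gated cells without astrocyte markers, orange all gated cells, blue Igfbp2-only cells and green Ccl2-high cells with little Igfbp2 (runs 2 and 3), with a circle, square and triangle for runs 1, 2 and 3. For Cxcl10 the red square of run 2 lies at 1997 and the circle and triangle of runs 1 and 3 at 113 and 205.

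Interferon-induced genes were higher as a group. Of 39 tested, 36 rose and none fell, with a median change of 2.43, and 28 rose and none fell, with a median of 2.31, when astrocyte-marker cells were left out. Without run 1, 24 rose. Without run 2, 32 rose with a median of 1.62, and with astrocyte-marker cells also left out 20 rose with a median of 0.91. These counts include Gbp2, a guanylate-binding GTPase of host defence, which stood at 67.1, 523 and 113 CPM in the gated cells and 11.1, 21.8 and 25.3 in the Igfbp2-only cells. Without astrocyte-marker cells the Gbp2 levels were 26.7, 521 and 74.4, so that run 1 came close to the highest Igfbp2-only level of 25.3 while run 2 stayed far above it. Its change was 3.29 on the log2 scale with all cells and 3.04 without the astrocyte-marker cells, as a description. A Gbp2 UMI was found in 20%, 87.3% and 28.8% of gated cells without astrocyte markers and in 15.9%, 28.0% and 20.5% of the Igfbp2-only cells without them.

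Ifit1, which binds foreign RNA caps, stood at 259, 336 and 206 CPM against 31.7, 31.4 and 24.0. All 3 runs were high with all cells, and the rise was 3.25 ± 0.13 (adjusted p = 2.22e-06). Without astrocyte-marker cells Ifit1 stood at 218, 314 and 28.8, the run 1 value coming from 3 of 25 cells, and run 3 then overlapped the Igfbp2-only cells. Its change was then 2.71 ± 0.46 (adjusted p = 0.0132). Isg15, a ubiquitin-like modifier, stood at 307, 1035 and 277 CPM against 61.2, 111 and 80.3 (change 2.52 ± 0.24, adjusted p = 0.000943). It was detected in 40.0%, 95.5% and 48.1% of gated cells without astrocyte markers and in 30.0%, 53.1% and 39.3% of Igfbp2-only cells without them. Rsad2, the antiviral enzyme viperin, stood at 260, 432 and 53.0 CPM against 13.0, 13.7 and 15.3. In run 1, 154 Rsad2 UMIs came from 2 of the 25 cells without astrocyte markers and 9 from the 4 cells with them. Rsad2 rose by 3.91 ± 0.51 (adjusted p = 0.00345), but at 3.62 did not pass without run 1 (adjusted p = 0.073). Cmpk2, a mitochondrial nucleotide kinase encoded beside it, rose by 3.40 ± 0.49 (adjusted p = 0.00509) and also lost its call without run 1 (2.87, adjusted p = 0.079). In run 1, 79 Cmpk2 UMIs came from 1 of the 25 cells without astrocyte markers and 7 from the 4 with them.

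A regulator of the interferon response and GTPases of cell-autonomous defence rose too. Irf1, a transcription factor induced by interferons, stood at 33.5, 262 and 118 CPM against 12.9, 24.0 and 34.9 and rose by 2.45 ± 0.36 (adjusted p = 0.00546). Of the immunity-related GTPases, Iigp1 rose by 4.37 ± 0.62 (adjusted p = 0.00507), with 47.9, 230 and 38.1 CPM against 2.62, 3.63 and 7.55, and Irgm1 by 2.59 ± 0.39 (adjusted p = 0.00612). Without run 1 Iigp1 did not pass (4.40, adjusted p = 0.063). In run 1, 20 Iigp1 UMIs came from 1 of the 25 cells without astrocyte markers and 10 from the 4 with them. For Iigp1 and Irf1 the run 2 level was the highest of the 3.

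Genes for MHC class I and peptide loading rose in part. Of 18 tested, 10 rose and none fell, with a median of 1.09, and 8 of 17 rose without astrocyte-marker cells, with a median of 1.12. With those cells left out, 6 of 18 rose without run 2, with a median of 0.47, 13 of 17 without run 1 and 16 of 18 without run 3. With all cells, 15 of 19 rose without run 3. Tap1, a subunit of the peptide transporter, stood at 25.6, 169 and 49.1 CPM against 12.1, 19.4 and 16.8 and rose by 2.23 ± 0.35 (adjusted p = 0.00802). Psmb8, an immunoproteasome subunit, rose by 1.63 ± 0.33 (adjusted p = 0.0237). H2-K1, the class I heavy chain, rose by 1.08 ± 0.14 (adjusted p = 0.00286), and without astrocyte-marker cells its change was 0.74 ± 0.21 (adjusted p = 0.0793). B2m, the light chain, rose by 1.09 ± 0.14 (adjusted p = 0.00357) and without those cells its change was 0.78 (adjusted p = 0.0576). Near-identical class I genes can share reads, so the H2-K1 values are uncertain in that respect.

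The NF-kB response list had 28 tested genes, of which 20 rose and none fell, with a median change of 1.37. Without astrocyte-marker cells 11 of 24 rose, with a median of 0.78, and without those cells and run 2 the count was 8, with a median of 0.35. With all cells but without run 1, 13 of 29 rose. Nfkbia, the inhibitor whose promoter is printed above, stood at 385, 537 and 727 CPM in the gated cells and at 68.5, 88.5 and 116 in the Igfbp2-only cells. Without astrocyte-marker cells its gated-cell levels were 301, 505 and 318. With or without them every run of gated cells lay above every run of Igfbp2-only cells, and the runs lay within a factor of 2 of each other. The change was 2.65 ± 0.09 (adjusted p = 1.75e-06), and 2.16 ± 0.18 (adjusted p = 0.000777) without astrocyte-marker cells. A Nfkbia UMI was found in 92.0%, 94.5% and 90.4% of gated cells without astrocyte markers and in 53.7%, 61.2% and 63.6% of Igfbp2-only cells without them.

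Other NF-kB response genes rose as well. Icam1, a leukocyte adhesion molecule, stood at 16.0, 31.1 and 11.6 CPM against 1.79, 2.85 and 1.94, and rose by 3.19 ± 0.29 (adjusted p = 0.000741). Birc3, an inhibitor of apoptosis, rose by 3 ± 0.34 (adjusted p = 0.00168), and Relb, an NF-kB subunit, by 1.76 ± 0.15 (adjusted p = 0.000494), with 44.7, 51.5 and 44.6 CPM against 14.0, 14.9 and 14.9. Vcam1, another adhesion molecule, stood at 355, 431 and 400 CPM against 160, 172 and 158 and rose by 1.33 ± 0.10 (adjusted p = 0.000181), or by 0.83 ± 0.12 (adjusted p = 0.00899) without astrocyte-marker cells. Icam1, Relb and Vcam1 did not overlap between the classes. Without astrocyte-marker cells the Icam1 levels of runs 1 and 3 rested on few cells. In run 1 the 3 cells with the highest Ccl2 held 102 Icam1 CPM and the other 22 held 6.32. In run 3 the 2 cells with the highest Ccl2 held 113, the next 16 held 0 and the other 34 held 4.76. Lcn2, an iron-binding protein of reactive astrocytes, depended on the astrocyte-marker cells: it stood at 2225, 906 and 3689 CPM in all gated cells and at 17.2, 78.7 and 5.95 without those cells. Its change was 4.10 ± 0.48 (adjusted p = 0.00203) with them and 1.74 ± 0.40 (adjusted p = 0.0413) without.

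Of 31 reactive gliosis genes, 15 rose and none fell, and without astrocyte-marker cells 10 of 28 rose and 1 fell, with medians of 1.03 and 0.60. Without those cells and run 2, 8 rose and 4 fell, with a median of 0.10. Gfap, the classical gliosis marker, stood at 1064, 200 and 1727 CPM in all gated cells against 238, 151 and 94.1, and missed the threshold (2.3 ± 0.56, adjusted p = 0.0504). Without the astrocyte-marker cells it stood at 7.63, 60.3 and 9.92, and its change of -0.56 ± 0.47 did not pass (adjusted p = 0.604). Rgs5 rose by 3.27 ± 0.68 (adjusted p = 0.0265) with all cells and did not pass without the astrocyte-marker cells (0.48, adjusted p = 0.796). Ptx3, a secreted pattern recognition protein, stood at 87.9, 180 and 83.3 CPM against 17.9, 12 and 12.4 and rose by 3.13 ± 0.29 (adjusted p = 0.000808), and by 2.85 ± 0.28 (adjusted p = 0.00161) without those cells. Timp1, a protease inhibitor and STAT3 target, rose by 1.3 ± 0.14 (adjusted p = 0.00163) and Cd44, a hyaluronan receptor, by 0.91 ± 0.13 (adjusted p = 0.00421). Ptx3, Timp1 and Cd44 were higher in the gated cells of all 3 runs. Of 23 immediate early genes, 6 rose and none fell, and without astrocyte-marker cells 4 rose. Fosl1, an AP-1 subunit, stood at 94.3, 96.2 and 95.6 CPM against 29.3, 29.5 and 48.7 and rose by 1.52 ± 0.16 (adjusted p = 0.00142).

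Müller glia identity genes were lower more often than higher in the gated cells. Of 32 tested, 10 fell and 4 rose, with a median of -0.32, and of 31 without astrocyte-marker cells 9 fell and none rose, with a median of -0.43. Leaving out run 1 left 3 that fell, and leaving out run 2 gave 17, or 22 with a median of -0.71 when astrocyte-marker cells were left out too. Rlbp1, the retinoid-binding protein CRALBP of the visual cycle, stood at 141, 234 and 220 CPM against 438, 425 and 409. The classes did not overlap, and the fall was -1.03 ± 0.15 (adjusted p = 0.0058), or -0.96 ± 0.15 (adjusted p = 0.00936) without astrocyte-marker cells. Acsl3, an enzyme that activates fatty acids, fell by 1.31 on the log2 scale (SE 0.19, adjusted p = 0.00586), but not past the threshold without run 1 (adjusted p = 0.059). Dapl1, from the same list, stood at 449, 712 and 514 CPM against 1327, 1477 and 1683 and fell by 1.38 (SE 0.13, adjusted p = 0.00098). Apoe, a lipid carrier, stood at 781, 1063 and 1052 against 1598, 1438 and 1393 and fell by 0.56 (SE 0.13, adjusted p = 0.0416), and without run 1 its change of -0.34 did not pass (adjusted p = 0.19). Glul stood at 316, 501 and 340 CPM against 504, 447 and 404 and did not pass (-0.17 ± 0.15, adjusted p = 0.639). The summed level of the list was 17721, 18200 and 19325 CPM in the gated cells, 21824, 19859 and 19167 in the Igfbp2-only cells and 44879, 41040 and 39976 in cells low in both Ccl2 and Igfbp2.

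Of 29 YAP and TAZ target genes, 6 rose and 3 fell, with a median of 0.05, and without astrocyte-marker cells 5 rose and 1 fell. Cyr61, a secreted matrix protein and classical YAP target, stood at 1786, 1557 and 1868 CPM against 1169, 1159 and 1488. The classes did not overlap, and the rise was 0.51 ± 0.08 (adjusted p = 0.00666), which was lost without run 1 (adjusted p = 0.1). Of 20 Hippo pathway components, none rose and 1 fell, and without astrocyte-marker cells none was called. Of 13 tested genes of the insulin-like growth factor axis other than Igfbp2, only Irs2 rose, and without astrocyte-marker cells none of 12 was called.

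Within Igfbp2-high cells without astrocyte markers, levels of these genes were also read along 6 steps of Ccl2, from under 1 through 1 to 5, 5 to 10, 10 to 20 and 20 to 50 to at least 50 UMIs per 10000. Because Ccl2 set the steps and the rule, this is a description. In run 2 the steps held 1339, 528, 112, 82, 110 and 99 cells. Cxcl10 there stood at 50.7, 92.6, 328, 592, 1708 and 3490 CPM, and Gbp2 at 21.3, 37.2, 118, 221, 496 and 801, each higher at every step than at the one before. Nfkbia stood at 84.8, 152, 274, 305, 495 and 684 CPM. Rlbp1 stood at 429, 290, 294, 268, 223 and 226, so that most of its difference lay between cells with under 1 and cells with 1 to 5 Ccl2 UMIs per 10000. In runs 1 and 3 only the first 4 steps held 20 cells or more. Cxcl10 stood there at 20.5, 37.8, 74.2 and 118 CPM in run 1 and at 42.3, 87.3, 164 and 211 in run 3, against 592 in run 2 at the same step of 10 to 20. Gbp2 stood at 9.83, 7.23, 5.43 and 29.5 in run 1 and at 24.9, 32.5, 53.1 and 102 in run 3, against 221 in run 2. Nfkbia at that step was 324 CPM in run 1, 305 in run 2 and 282 in run 3. At 10 to 20 Ccl2 UMIs per 10000, then, the runs lay close together in Nfkbia, while Cxcl10 and Gbp2 were highest in run 2. In run 3 the 16 cells at 20 to 50 held 174 Cxcl10, 21.0 Gbp2 and 207 Nfkbia CPM, each lower than at 10 to 20. The 2 cells of run 3 at 50 or more held 361, 90.2 and 1670. The climb above 10 to 20 was thus read from run 2 alone.

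**Figure D3:**
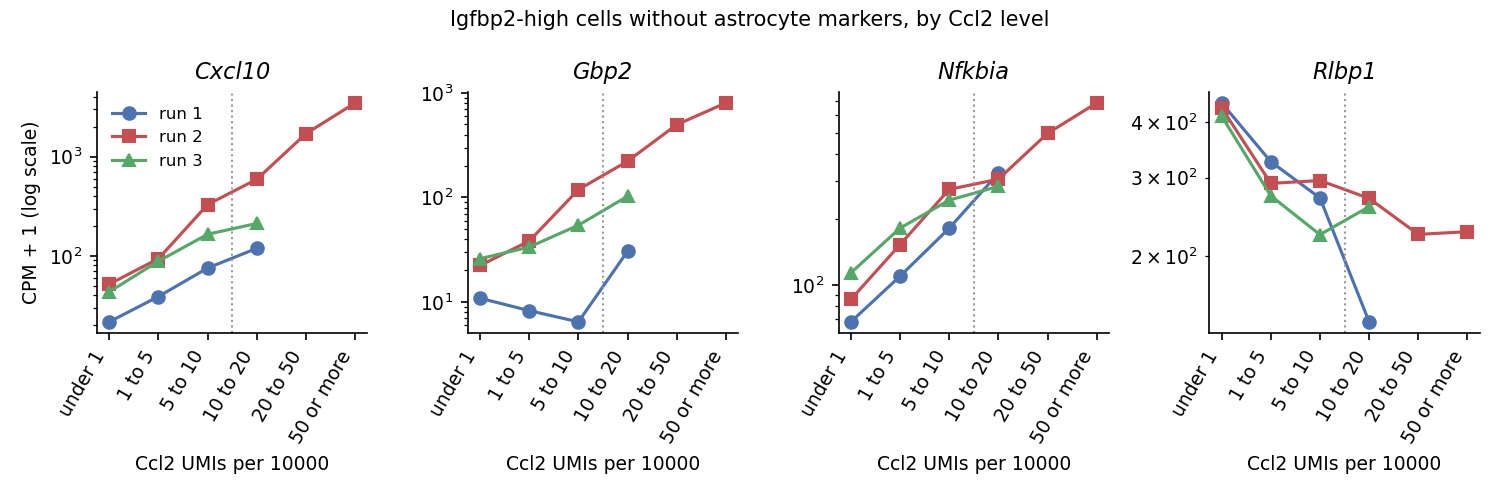
Levels of Cxcl10, Gbp2, Nfkbia and Rlbp1 in Igfbp2-high cells without astrocyte markers, in CPM plus 1 on a log axis, by step of Ccl2 UMIs per 10000 and by run. Steps with fewer than 20 cells are not drawn, and the dotted line marks the limit of 10 in the rule. In run 2 Cxcl10 climbs from 50.7 to 3490, and Rlbp1 drops from 429 to 226.

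Most gated cells held cell cycle transcripts. Each cell was thinned to 3500 UMIs, and a cell counted when it then held at least 4 UMIs of the S phase list or at least 4 of the G2 and M phase list. By this rule 27 of 29 (93.1%), 283 of 309 (91.6%) and 65 of 88 (73.9%) gated cells of runs 1, 2 and 3 held cycle transcripts, against 92.5%, 93.2% and 93.4% of Igfbp2-only cells. The mean was 86.2% ± 10.7 (SD, n = 3) against 93.0% ± 0.43, a difference of -6.84 ± 11 percentage points (SD) that did not pass an exact two-sided sign-flip test over runs (p = 0.5, smallest possible 0.25). Run 3 alone was low. Without astrocyte-marker cells the shares were 92.0%, 93.8% and 94.2%, against 93.7%, 93.9% and 93.8%, while among the astrocyte-marker gated cells they were 100%, 55.6% and 44.4%. Unthinned, the shares were 100% in every run of gated cells and 99.8%, 99.9% and 99.7% in Igfbp2-only cells.

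This share has a high background. Of cells low in both Ccl2 and Igfbp2, 79.2%, 74.5% and 68.2% passed the same rule, and 7 genes of the G2 and M phase list stood at 50 CPM or more in those cells. The S phase list set the gated cells further from the cells low in both: by it alone 69.0%, 83.5% and 59.1% of gated cells passed, against 77.7%, 80.7% and 82.5% of Igfbp2-only cells and 8.63%, 6.83% and 6.61% of cells low in both. Without astrocyte-marker cells 76.0%, 88.3% and 94.2% of gated cells passed by the S phase list, against 80.0%, 82.7% and 83.7% of Igfbp2-only cells. Of the astrocyte-marker gated cells 1 of 4, 1 of 18 and 3 of 36 passed by the S phase list. The gated cells without astrocyte markers thus passed by the S phase list in at least 76.0% of cells in every run, against at most 8.63% of cells low in both.

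**Figure D4:**
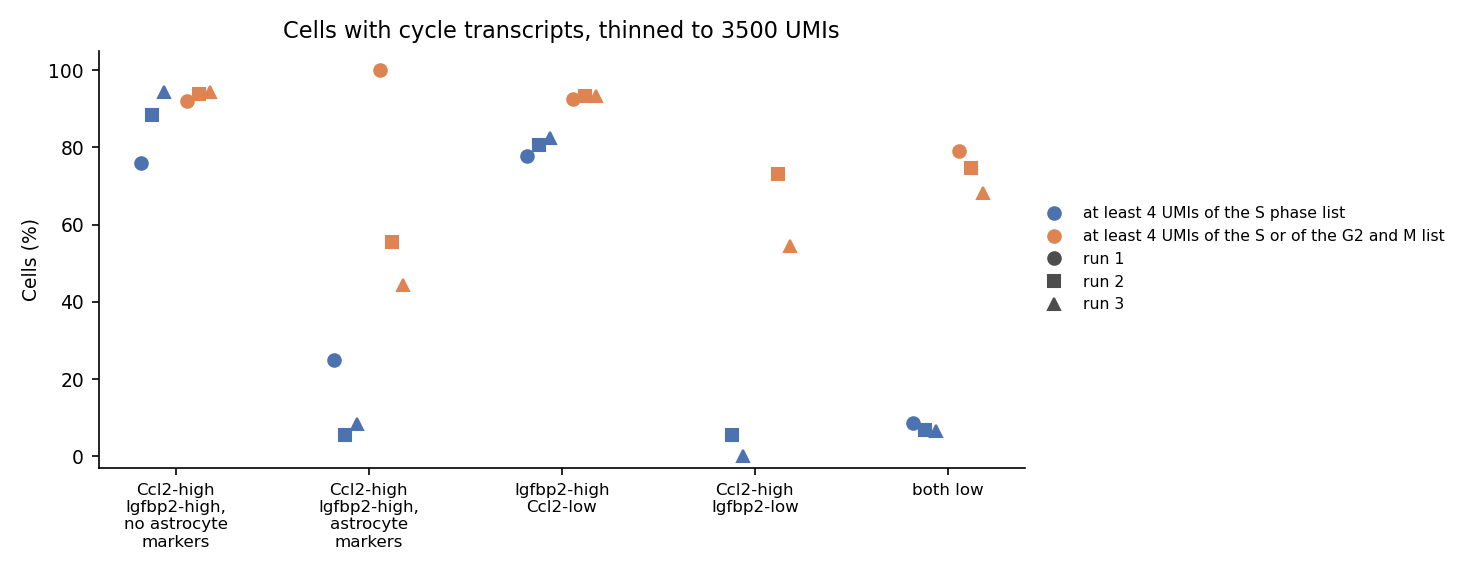
Percent of cells in each run with at least 4 UMIs of the S phase list (blue) and with at least 4 UMIs of either the S phase or the G2 and M phase list (orange), after thinning to 3500 UMIs, for gated cells without and with astrocyte markers, Igfbp2-only cells, Ccl2-high cells with little Igfbp2 (runs 2 and 3) and cells low in both. By the S phase list the cells low in both lie between 6.61% and 8.63%.

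Late G2 and mitotic genes were lower in the gated cells than in the Igfbp2-only cells. Each class was summed over all its cells, with or without cycle transcripts, and whether cycling cells differed in phase was not tested. Of 54 G2 and M phase genes, 28 fell and none rose, with a median of -0.51, and 15 fell, with a median of -0.29, without astrocyte-marker cells. With those cells left out, 11 fell and 2 rose without run 2, with a median of -0.12, and 28 fell without run 3. With all cells and no run block, 10 fell. Of 44 S phase genes none was called, with a median of 0.05, and without astrocyte-marker cells Rrm2, Slbp and Pcna rose and none fell, with a median of 0.25. That count of 3 was 1 without run 1, 10 without run 2 and 1 without run 3. Cdc20, which activates the ligase that starts anaphase, stood at 76.7, 94.1 and 103 CPM against 230, 306 and 308. Without astrocyte-marker cells its gated-cell levels were 91.6, 96.2 and 144, so the classes did not overlap either way. Cdc20 fell by 1.56 on the log2 scale (SE 0.10, adjusted p = 5.99e-05) with and by 1.34 (SE 0.11, adjusted p = 0.000716) without astrocyte-marker cells. Ccnb1, cyclin B1, stood at 83.1, 89.7 and 99.5 against 177, 239 and 236 and fell by 1.21 (SE 0.10, adjusted p = 0.000494). Cenpf, a kinetochore protein, fell by 0.99 (SE 0.10, adjusted p = 0.00116). Ckap2, a spindle protein, fell by 1.37, Cdkn3, a phosphatase of Cdk1, by 1.26, Hmmr, a spindle protein, by 1.04 and Cenpa, the centromere histone, by 1.02 (adjusted p = 0.00202, 0.00176, 0.00145 and 0.00706). All 6 of these genes were lower in the gated cells of every run. Cdk1, the kinase that cyclin B1 activates, stood at 343, 295 and 343 CPM against 336, 372 and 375 and did not pass (-0.09 ± 0.09, adjusted p = 0.68), nor did Top2a, a topoisomerase (0.01, adjusted p = 1).

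Genes acting at G1 and the start of S phase gave 4 rises and 2 falls among 23 tested. Rrm2, a subunit of ribonucleotide reductase, stood at 543, 538 and 397 CPM against 457, 458 and 370, so the classes overlapped, and its change of 0.25 ± 0.08 did not pass (adjusted p = 0.133). Without astrocyte-marker cells Rrm2 stood at 622, 559 and 596 in the gated cells and rose by 0.51 ± 0.08 (adjusted p = 0.0107). Cdkn1a, the inhibitor p21, stood at 75.1, 121 and 65.2 against 50.1, 48.3 and 50.9 and rose by 0.87 ± 0.19 (adjusted p = 0.0341). Myc, a growth-promoting transcription factor, stood at 41.5, 37.9 and 38.8 against 17.2, 17.4 and 30.5 and rose by 0.96 ± 0.19 (adjusted p = 0.0235). Ccne1, cyclin E1, rose by 0.59 ± 0.13 (adjusted p = 0.0369) and Ccnd2, cyclin D2, by 0.38 ± 0.08 (adjusted p = 0.029). The classes did not overlap in Cdkn1a or Myc. Each of these 4 lost its call when run 1 was left out (adjusted p = 0.12 for Cdkn1a, 0.14 for Myc, 0.1 for Ccne1 and 0.16 for Ccnd2), while without astrocyte-marker cells all 4 were called, at adjusted p = 0.00616, 0.0138, 0.0133 and 0.0203.

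The second comparison was with the other chemokine-high cells, those with at least 10 Ccl2 but under 1 Igfbp2 UMI per 10000 (the Ccl2-only cells). They numbered 5, 444 and 44 in runs 1, 2 and 3, so the test rested on runs 2 and 3. The gated cells were higher in cell cycle genes and YAP targets and lower in interferon-induced, NF-kB and Müller glia genes. Of 10930 genes 1425 (13.0%) were higher and 1120 (10.2%) lower in the gated cells, and 1613 (15.0%) and 1455 (13.6%) of 10734 without astrocyte-marker cells. The medians over all genes were 0.02 and 0.00. DESeq2 called 578 higher and 430 lower, and without the run block 532 and 194 were called. The Ccl2-only cells were shallower, with median totals of 13447.5 and 7508 UMIs against 23808 and 16450.5 in the gated cells of the same runs, and in cells thinned to 3500 UMIs 729 genes were higher and 627 lower.

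Of 54 G2 and M phase genes 50 were higher in the gated cells and none lower, and of 44 S phase genes 42 and none, with medians of 4.10 and 3.64. Cdk1 stood at 295 and 343 CPM in runs 2 and 3 against 10.5 and 0 in the Ccl2-only cells. Top2a stood at 237 and 185 against 8.51 and 0. For Rrm2 the levels were 538 and 397 against 16.5 and 2.64 (change 5.23 ± 0.31, adjusted p = 6.89e-09). Spc24, a kinetochore protein, stood at 140 and 165 against 4 and 2.64, and Ube2c, the ubiquitin enzyme of anaphase, at 229 and 281 against 9.01 and 2.64. Ccnd2 rose by 3.40 with 634 and 537 against 56.6 and 50.2. The cells low in both Ccl2 and Igfbp2 held 9.46 and 8.05 Cdk1 and 8.4 and 8.59 Rrm2 CPM, on the side of the Ccl2-only cells. By the S phase list 5.63% of Ccl2-only cells of run 2 and 0 of 44 of run 3 passed, the latter allowing a share of up to 6.82%.

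Of 29 YAP and TAZ targets 17 were higher and 1 lower in the gated cells, with a median of 1.16. Against the Igfbp2-only cells 6 of 29 were higher and 3 lower, with a median of 0.05, so most of this difference was shared with those cells. Ankrd1, a muscle ankyrin repeat protein and YAP target, stood at 41.0 and 27.8 CPM in runs 2 and 3 against 0.667 and 5.28, a rise of 5.14 ± 0.60 (adjusted p = 4.45e-06). Thbs1, thrombospondin, rose by 3.24. Cyr61 stood at 1557 and 1868 against 918 and 2088, overlapped and did not pass (0.24, adjusted p = 0.456). Csf1 stood at 274 and 256 CPM against 37.4 and 29.0, a rise of 2.90 ± 0.24 (adjusted p = 1.32e-07), and Cxcl12 rose by 2.00 ± 0.24 (adjusted p = 6.54e-06). Col8a1, a collagen, stood at 93.8 and 104 against 2.17 and 2.64, and Tinagl1, a matrix protein, at 153 and 136 against 5.84 and 2.64. Csf1, Cxcl12 and Col8a1 were higher in the gated cells of both runs. Of the 19 tested chemokines and cytokines, 3 rose and 7 fell, and with no run block 2 rose and 2 fell.

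Of 39 interferon-induced genes 1 was higher and 24 lower in the gated cells, with a median of -0.88, and 32 were lower without astrocyte-marker cells. DESeq2 called 12 lower, the fit with no run block 1 and cells thinned to 3500 UMIs 15, with medians of -0.93, -0.81 and -0.72. Gbp2 stood at 523 and 113 CPM in runs 2 and 3 against 1971 and 467 in the Ccl2-only cells. Ifit1 stood at 336 and 206 against 1146 and 547 and fell by 1.66 (SE 0.20, adjusted p = 4.96e-06). Cxcl10 differed little in run 2, at 2148 against 2131, and was lower in run 3, at 435 against 718. Without astrocyte-marker cells the gated cells of runs 2 and 3 held 1997 and 205 Cxcl10 CPM. Of 27 NF-kB response genes 10 were lower and none higher, and 17 were lower without astrocyte-marker cells, 5 with DESeq2 and 1 with no run block. Nfkbia stood at 537 and 727 CPM against 1246 and 1119 and fell by 0.99 (SE 0.19, adjusted p = 0.000927), or by 1.62 (SE 0.19, adjusted p = 1.01e-08) without astrocyte-marker cells. Ccl7 stood at 841 and 238 against 1833 and 454 and fell by 1.10 (SE 0.18, adjusted p = 0.00023).

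In CPM with all cells the gated cells were thus intermediate for Gbp2, Ifit1 and Nfkbia between the Igfbp2-only and the Ccl2-only cells in both runs. For Ifit1 in run 3 this rested on the astrocyte-marker cells. Without them its level there overlapped the Igfbp2-only cells, as given above. Counted per cell without astrocyte markers, the gap was smaller or reversed, since the gated cells held more UMIs: Cxcl10 averaged 49.3 and 3.98 UMIs per cell in gated cells of runs 2 and 3 and 28.8 and 6.48 in Ccl2-only cells. Nfkbia averaged 12.5 and 6.17 against 16.8 and 9.86, and Gbp2 12.9 and 1.44 against 26.6 and 4.19. Of these 3 genes, only Cxcl10 in run 2 was higher per cell in the gated cells.

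Müller glia identity genes were lower in the gated cells than in the Ccl2-only cells: 24 of 32 fell and 4 rose, with a median of -1.35, and with no run block 10 fell and none rose. Glul stood at 501 and 340 CPM in runs 2 and 3 against 1461 and 1172 and fell by 1.73 (SE 0.19, adjusted p = 1.95e-06). Apoe stood at 1063 and 1052 against 3499 and 6159 and fell by 2.20 (SE 0.20, adjusted p = 3.39e-07). Rlbp1 fell by 1.91 (SE 0.20, adjusted p = 1.43e-06). All 14 rod genes were lower too, and they summed to 751 and 490 CPM against 1588 and 2033, a difference whose part in these results was not tested. Prss56, a secreted serine protease, stood at 10.3 and 5.17 CPM against 107 and 995 and fell by 5.01 (SE 0.56, adjusted p = 2.57e-06). Nupr1, a stress-response regulator, stood at 418 and 412 against 4920 and 3773, a fall of 3.44 (SE 0.19, adjusted p = 5.57e-09), and Fas, a death receptor, at 49.4 and 24.5 against 395 and 158. Slc7a11, the cystine transporter, fell by 3.63, Arc, an activity-induced gene, by 3.48 and Crym, a thyroid hormone-binding protein of Müller glia, by 2.89. Lcn2 and Gfap turned on the astrocyte-marker cells: with all cells neither passed, and without them Lcn2 fell by 5.0 (SE 0.26, adjusted p = 1.01e-16) and Gfap by 4.16 (SE 0.30), the Ccl2-only cells holding 1830 and 393 Lcn2 CPM.

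**Figure D5:**
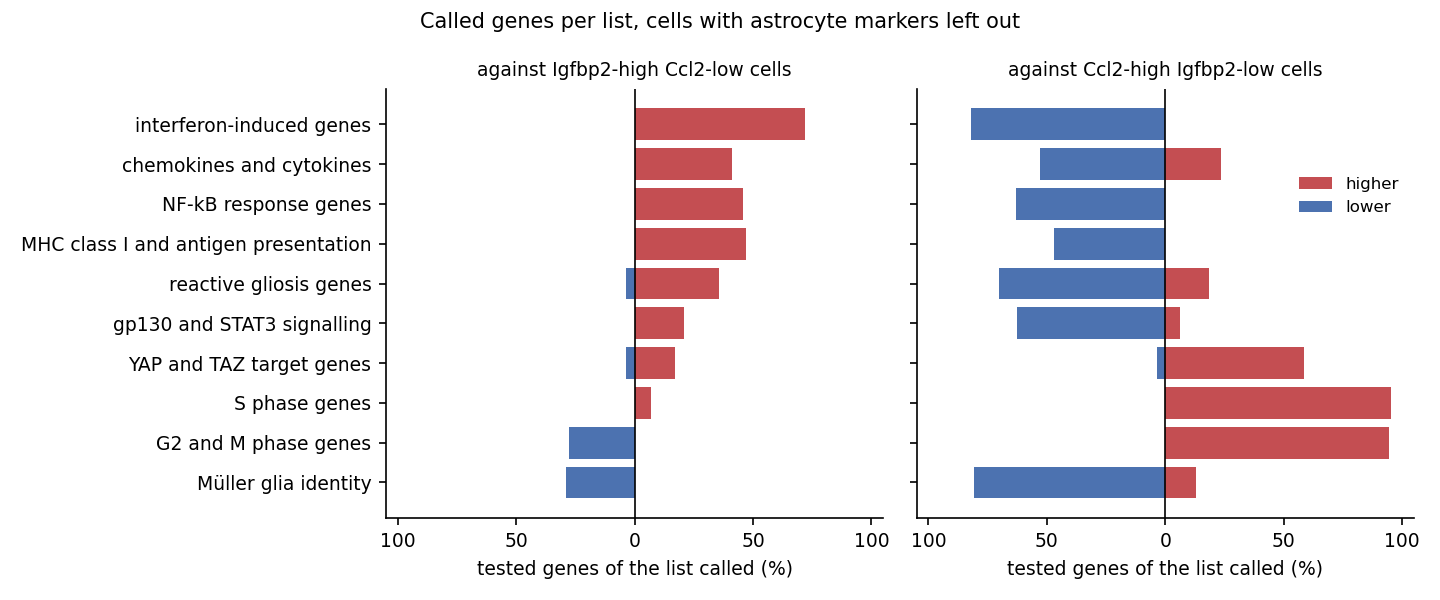
Percent of the tested genes of 10 lists called higher or lower in gated cells against Igfbp2-only cells (left, 3 runs) and against Ccl2-only cells (right, runs 2 and 3), with astrocyte-marker cells left out. Interferon-induced genes lie on the higher side at left (28 of 39) and on the lower side at right (32 of 39).

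Whether the difference between Ccl2-high and Ccl2-low cells was of another size in Igfbp2-high than in Igfbp2-low cells was tested as an interaction over 4 classes in runs 2 and 3. With all cells edgeR called 0 of 13943 genes (smallest adjusted p = 0.0541), while 1741 genes (12.5%) had an unadjusted p under 0.05 and DESeq2 called 46 higher and 116 lower. Without astrocyte-marker cells edgeR called 89 of 13801 genes (0.645%), 21 higher and 68 lower. They included 10 of 31 NF-kB response genes, all lower, that is, with a smaller rise, or a larger fall, with Ccl2 in Igfbp2-high cells. Tnfaip3, which encodes the NF-kB inhibitor A20, is an example: without astrocyte-marker cells it stood at 35.9 and 39.7 CPM in gated and 18.9 and 32.4 in Igfbp2-only cells of runs 2 and 3, and, with all cells, at 65.4 and 92.4 in Ccl2-only cells and 8.99 and 14.5 in cells low in both (interaction -2.11 ± 0.21, adjusted p = 0.00829). Nfkb1, an NF-kB subunit, differed by -1.69 ± 0.23 (adjusted p = 0.0222). Cxcl5, a neutrophil chemokine, went the other way, with 41.3 and 8.92 CPM in the gated cells without astrocyte markers and 0.582 and 0.327 in the Igfbp2-only cells, against 10.8 and 2.64 in all Ccl2-only cells and 2.05 and 1.67 in all cells low in both (interaction 3.81 ± 0.55, adjusted p = 0.0257). In run 2 a Cxcl5 UMI was found in 36 of the 291 gated cells without astrocyte markers. At the Ccl2 steps of 10 to 20, 20 to 50 and at least 50, Cxcl5 stood at 81.8, 13.8 and 37.5 CPM in run 2. In run 3 it stood at 14.3, 0 and 0, in 34, 16 and 2 cells. Cxcl5 thus did not climb with Ccl2 within the gated cells, and its run 3 levels were low. Ccl7 was not among the called genes. On simulated data the interaction fit recovered only 2% of 2-fold changes, so a missing call does not show that the difference was of equal size. These calls rest on 2 runs and on cells left out after the data were seen.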

How the data were processed

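The labels describe 10X Chromium 3′ v2 libraries of sorted cells. The values analysed are the deposited UMI counts of each gene in each cell, which the authors made with Cell Ranger on mm10, per the submitters' processing notes. A second deposited table holds natural log values, made with Seurat 2.3.4 per those notes, for 13511 of the 24695 cells (54.7%); they equalled ln(1 + 10000 × count / total) within 5.00e-07. How those cells were chosen is not given in the sources used here, and they were used for 1 alternative.

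Filters on genes per cell (500 or more) and on mitochondrial UMIs (20% or less) removed 23 cells. No doublet caller was used and doublets were not removed. UMI counts were summed per run and class (at least 20 cells), passed through filterByExpr and TMM scaling and fitted with the quasi-likelihood test of edgeR 4.0.16 in R 4.3.3, with the run as a block because both classes of a run share a library. P-values were adjusted by the Benjamini-Hochberg method over all genes tested, with a threshold of 0.05. The SE of a change is the fitted change divided by the square root of F. Ccl2, Igfbp2 and the C1q genes were left out of the tests. DESeq2 1.42.0 was the other tool. Cycle shares used scipy 1.17.1, numpy 2.4.6 and pandas 2.3.3 in Python 3.11.15, and plots matplotlib 3.10.9. Gene positions are from GENCODE M21 and promoters from RefSeq on GRCm38.p6. Tested on simulated data, the first comparison (12980 genes) recovered 77% of 2-fold and 12% of 1.5-fold changes with 4.30% of calls false, the second (11184 genes) 24% and 5% with 0% false, and the interaction (13787 genes) 2% and 0%. The simulated counts had the same fixed spread for every gene. These rates therefore do not cover genes whose UMIs came mostly from a few cells.

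The rule, the compared cells and the gene lists were chosen with earlier results of these data known. Genes were named by a rule: per comparison, the called genes that changed most, 10 each way, given a log2 change of 0.5 or more, 50 CPM or more on average and 1 direction in all runs, without rule, ribosomal, mitochondrial or unnamed predicted genes. The rule also took the 4 called genes of each list with the highest levels, the 4 markers, and listed chemokines from 50 CPM. Not every such gene is described, and some are not reported here. Others in the text, such as Ankrd1, Birc3, Cd44, Cxcl5, Icam1, Irf1, Nfkb1, Relb and Tnfaip3, were chosen after their values were seen. The alternatives were other scaling, tools, filters, thresholds, thinning, cell sets, no run block and each run left out. Leaving out astrocyte-marker cells, using no scaling, and the S phase and shortened G2 and M phase lists were chosen after the data were seen.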

Additional observations from a re-analysis of the deposited data

How the results depend on the processing

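Against the Igfbp2-only cells the count of higher genes, 387 as reported, was 6 in the authors' cells, 54 in cells without cycle transcripts, 775 with no low-count filter and 253 with no replicate block, and the count of lower genes, 250 as reported, was 2, 0, 563 and 135 in the same settings, 137 with Ccl2 of at least 20, 382 with no scaling and 143 in cells thinned to 3500 UMIs. Leaving out a run gave 184 to 580 higher and 70 to 376 lower, and 318 to 567 and 146 to 382 with astrocyte-marker cells also left out. Against the Ccl2-only cells (1425 higher and 1120 lower) the counts were 578 and 430 with DESeq2, 124 and 83 in cells without cycle transcripts, 532 and 194 with no replicate block and 729 and 627 in thinned cells. For the interaction, with none called as reported, the counts were 46 higher and 116 lower with DESeq2, 1 and 10 with RLE size factors, 71 and 163 in the authors' cells, 21 and 68 without astrocyte-marker cells, 7 and 17 with no low-count filter and 1 and 9 with no scaling. Fewer runs entered the fits on the authors' cells, on cells without cycle transcripts and on Ccl2 of at least 20, which rested on 2. The difference in the share with cycle transcripts was 0.195 percentage points unthinned, 0.838 in the authors' cells and 5.14 with astrocyte-marker cells and 7 G2 and M phase genes left out, and -10.5 to -0.509 when a run was left out. Of the named genes' changes against the Igfbp2-only cells under the alternatives, 1066 kept direction and side of the threshold, 150 lost the call, 50 gained it and 7 reversed; against the Ccl2-only cells the counts were 693, 75, 25 and 4. The reversals were Csf1 at -0.14 and Tinagl1 at -0.72 in cells without cycle transcripts, and Rgs5 at -7.28, Gfap at -2.42, Cdk1 at 0.38, Spc24 at 0.34 and Nupr1 at -0.64 without run 2 and astrocyte-marker cells. In the second comparison they were Cxcl2 at 0.56 in cells without cycle transcripts, Lcn2 at -5.00 without astrocyte-marker cells and -5.21 in the authors' cells, and Dapl1 at 0.74 in the authors' cells. The cause was not tested. The second comparison and the interaction gave no value without run 2 or run 3, nor the second with Ccl2 of at least 20. With 25 gated cells without astrocyte markers in run 1, levels there rest on few cells.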

Other observations

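Genes of other groups also differed between the gated and the Igfbp2-only cells. Pax6, a transcription factor of retinal progenitors that Müller glia retain, stood at 95.9, 106 and 106 CPM in the gated cells of runs 1, 2 and 3 and at 240, 195 and 207 in the Igfbp2-only cells. It fell by 0.96 on the log2 scale (SE 0.12, edgeR adjusted p = 0.00274). Hmga2, a chromatin protein of fetal and proliferating cells, stood at 86.3, 55.9 and 31.7 against 22.9, 17.1 and 21.6 and rose by 1.49 ± 0.23 (adjusted p = 0.00802). Neither class overlapped the other in Pax6 or Hmga2.

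Of 24 stress and heat shock genes, 4 rose and 1 fell, with or without astrocyte-marker cells. Hmox1, heme oxygenase 1, stood at 65.5, 121 and 30.4 CPM against 31.7, 28.5 and 25.8, with run 3 overlapping the Igfbp2-only cells, and rose by 1.32 ± 0.30 (adjusted p = 0.0404). Gadd45a, a growth arrest and DNA damage gene, rose by 0.62 ± 0.11 (adjusted p = 0.0119). Cryab, a small heat shock protein, fell by 0.37 (SE 0.08, adjusted p = 0.0403). Of 12 glial quiescence genes 3 rose and none fell, with a median of 0.03, and without astrocyte-marker cells 1 rose and 2 fell, with a median of -0.19. Id2, an inhibitor of DNA-binding factors, stood at 113, 261 and 67.2 against 62.1, 45.7 and 43.3 and rose by 1.49 ± 0.33 (adjusted p = 0.0343), and by 1.62 ± 0.33 (adjusted p = 0.0281) without astrocyte-marker cells.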
